A study of Sus scrofa with 12 samples.

Results

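Genes of MHC class I antigen processing were examined for C/EBP-β summits in the endometrium, the lining of the uterus, of pregnant pigs. The set was fixed by gene name. It holds PSMB8, PSMB9, TAP1, TAP2, TAPBP, ERAP1, B2M and NLRC5, which are 8 of the gene symbols in a table of 19550 protein-coding genes on the chromosomes of pig build Sscrofa11.1 (susScr11), on which all coordinates are given. B2M is annotated at 2 loci, so the 8 symbols gave 9 loci. The gene table holds no strand, so the ends of a gene are called lower and upper by coordinate. The study compared tissue of day 15 of pregnancy (3 ChIP libraries and 3 inputs) with tissue of day 12 (3 ChIP libraries and 3 inputs). The labels give an antibody to C/EBP-beta, a bZIP transcription factor, for all 6 ChIP samples, and only the ChIP lists were used here. The labels used here state no strain, age or number of animals and do not say whether same-day libraries stem from different sows. Any p-value below covers sample-to-sample spread only, part of which may be technical.

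Cells display fragments of their own proteins on MHC class I molecules for inspection by T cells and natural killer cells. The proteasome cuts proteins into peptides, the TAP transporter carries the peptides into the endoplasmic reticulum, aminopeptidases trim them, and tapasin loads them onto a heavy chain paired with β2-microglobulin. Interferons induce most of these genes, NLRC5 activates their transcription, and around attachment the pig conceptus itself secretes interferons. C/EBP-β is known as a factor of inflammatory and stress responses and of endometrial stromal differentiation.

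Each list holds the summits (single-base peak maxima) that the authors called in 1 library, with a score. Read counts are not part of the lists, the depth is therefore unknown, and list length stands in for it. Day 15 lists held 70152, 16529 and 11960 summits on the chromosomes in replicates 1 to 3, against 6557, 33294 and 57728 on day 12. The lowest score was 2.017 in day 12 replicate 1, against 1.308 to 1.367 in the other lists. The part of this difference in the absences of that library was not tested. Going by the peak names, the libraries were processed in 2 sets. Names with a directory path (set A) mark day 15 replicates 2 and 3 and day 12 replicate 1, and names without one (set B) mark day 15 replicate 1 and day 12 replicates 2 and 3. The sample part of the peak names leaves out the protein in day 15 replicate 3 and in day 12 replicate 1, and day 15 replicate 3 shares its sample code with day 15 replicate 2. That day 15 replicate 3 is a C/EBP-β library of its own, and with it the n of 3 for day 15, therefore rests on the labels alone. Without it 7 loci stayed bound on day 15 by the rules given below, against 42.9% of all genes (46.3% with it). NLRC5 stayed the locus with a summit in every day 15 library and in no day 12 library. That pattern was then shown by 4.66% of all genes (2.83% with it). The 6 loci without overlap within 50 kb, with day 15 higher, were unchanged, against 12.9% of all genes (9.51% with it). Some results are also given without day 15 replicate 3 or without day 12 replicate 1, where they are described or in the closing section. A whole tissue was used, so fewer cells with a bound site and less binding per cell cannot be told apart, and summits do not measure expression.

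The number of class I loci near a summit averaged higher on day 15 than on day 12, with overlap between the libraries, and with 5 kb windows NLRC5 was the single locus whose presence calls separated the days. Day 15 libraries had a summit within 5 kb of either gene end at 9, 7 and 7 of the 9 loci, against 1, 5 and 7 loci in day 12 libraries. The groups met at 7 loci, in day 15 replicates 2 and 3 and in day 12 replicate 3. The mean was 7.67 ± 1.15 loci on day 15 and 4.33 ± 3.06 on day 12 (SD, n = 3 each), a difference of 3.33 that is close to the larger of these SDs. Within set A the day 15 libraries averaged 7 loci and the day 12 library 1, and within set B the day 15 library had 9 and the day 12 libraries averaged 6. Of all protein-coding genes, 64.8%, 44.6% and 37.6% had such a summit in the day 15 libraries and 17.2%, 38.4% and 54.1% in the day 12 libraries. Day 15 replicate 3 thus reached 7 class I loci with 11960 summits, while day 12 replicate 2 reached 5 with 33294. Without day 12 replicate 1, the shortest list, the difference was 1.67 loci. Within 50 kb the day 15 libraries had a summit at 9, 9 and 9 loci and the day 12 libraries at 2, 9 and 9, a difference of 2.33 that was 0 without day 12 replicate 1. The part of list length or of the lowest score in these counts was not tested.

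**Figure D1:**
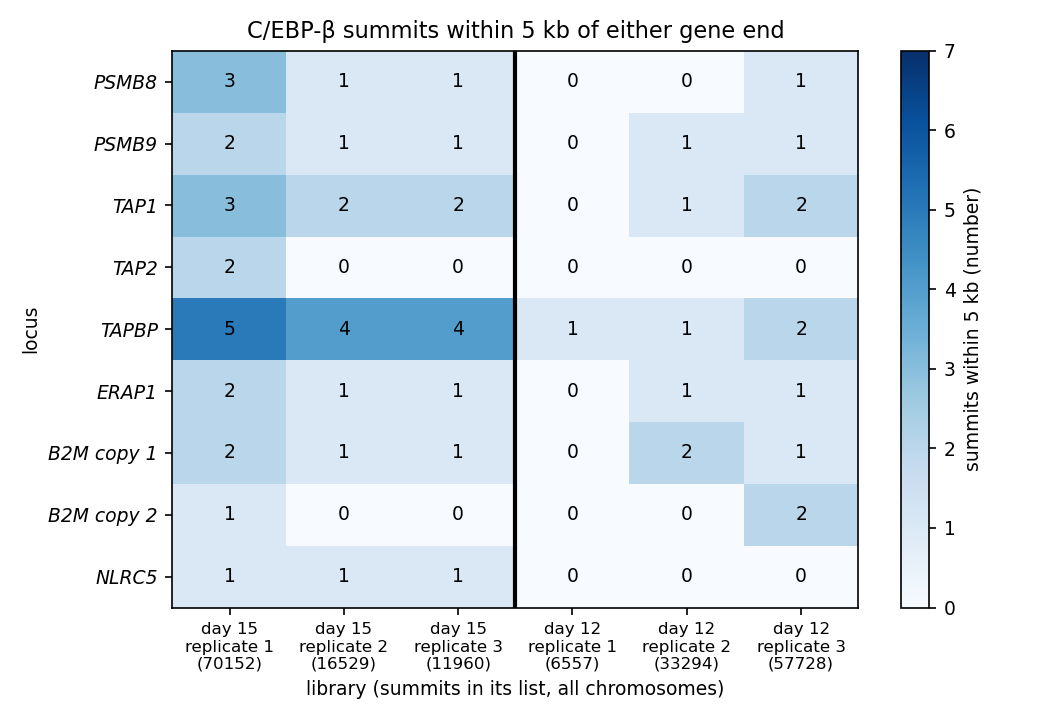
Number of C/EBP-β summits within 5 kb of either end of each locus (rows) in each library (columns, day 15 left of the line, with the number of summits in the list in brackets). TAPBP has 4 or 5 summits in the day 15 libraries and 1 or 2 in the day 12 libraries, and NLRC5 has 1 in each day 15 library and 0 in each day 12 library.

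A locus was called bound on a day when at least 2 of 3 libraries had a summit within 5 kb. By that rule 7 of 9 loci were bound on day 15, against 5 of 9 on day 12. The share among all protein-coding genes was 46.3% for day 15 and 38.1% for day 12. The 7 loci of day 15, all of which had a summit in 3 of 3 libraries (33.7% of all genes did), were PSMB8, PSMB9, TAP1, TAPBP, ERAP1, NLRC5 and the first B2M copy. The 5 of day 12 were the same without PSMB8 and NLRC5. The day 12 count fell to 1 without day 12 replicate 2 and also to 1 without day 12 replicate 3 (16.6% and 15% of all genes), because both libraries left were then required and day 12 replicate 1 had a summit at TAPBP only. The median locus had a summit in 3 day 15 libraries and 2 from day 12, against 1 and 1 for the median gene of the genome. PSMB8, PSMB9, TAP1 and TAP2 are neighbours that share summits, so the 9 loci are not independent of each other.

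PSMB8 and PSMB9 encode interferon-induced catalytic subunits of the immunoproteasome, and TAP1 and TAP2 the subunits of the peptide transporter. The 4 genes stand side by side on chromosome 7 in the order TAP2 (25045085 to 25056915), PSMB8 (25058456 to 25061666), TAP1 (25062772 to 25071989) and PSMB9 (25072133 to 25077508). Only 143 bp separate TAP1 from PSMB9, which in humans share a bidirectional promoter. The main site of the cluster lay at this gap. Its region (summits of any library joined within 200 bp) ran from 25071923 to 25072174 and had a summit in 3 day 15 libraries and in 2 from day 12. Day 15 summits stood at 25072174, 25071923 and 25072112, and the day 12 summits of replicates 2 and 3 at 25072169 and 25072157. Summits of 4 libraries lay within 21 to 41 bp of the PSMB9 end, and that of day 15 replicate 2 lay 66 bp inside TAP1. By score (percentile, the rank of a score from the bottom of its list) they stood at 75.0, 60.1 and 58.7 of the day 15 lists, and at 64.6 and 12.1 of the day 12 lists of replicates 2 and 3. The site was thus shared by both days and absent from day 12 replicate 1, the shortest list and the one with the highest lowest score.

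A further site lay between PSMB8 and TAP1, which are 1105 bp apart. The region ran from 25062076 to 25062330 and held a summit in 3 day 15 libraries and in 1 from day 12. Distances to the upper PSMB8 end were 410, 528 and 492 bp in day 15 replicates 1 to 3 and 664 bp in day 12 replicate 3. The same summits lay 442 to 696 bp from the lower TAP1 end. Percentiles were 61.6, 71.0 and 20.5 on day 15 and 36.4 in day 12 replicate 3. At TAP2 summits came within 5 kb in a single library, day 15 replicate 1, at 76 and 665 bp from its upper end and low in that list (percentiles 9.3 and 1.0), a pattern that 6.87% of all genes had. The summits next to PSMB8 stood just outside the TAP2 window in every library that had them, from 5161 to 5415 bp away. Beyond the 4 genes, BRD2, which encodes a reader of acetylated histones, held a region at 25104198 to 25104232. That region had a summit in 1 day 15 library and in 2 from day 12, the libraries of set B.

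**Figure D2:**
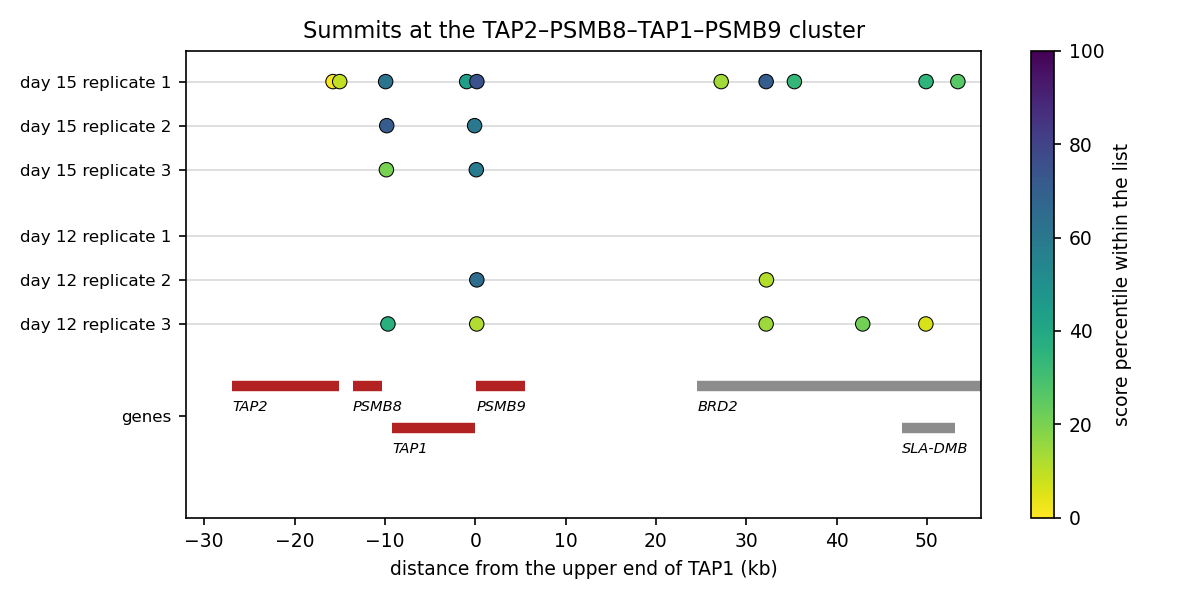
Summit positions in each library (rows, day 15 above day 12) along the TAP2, PSMB8, TAP1 and PSMB9 cluster, as distance in kb from the upper end of TAP1; red bars are the class I genes, grey bars their neighbours, and the colour of a point is the percentile of its score within its list. The site at 0 kb appears in 3 day 15 and 2 day 12 libraries, and day 12 replicate 1 has no summit in the stretch.

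TAPBP, which encodes the loading chaperone tapasin, was the class I locus with the most summits. It lies on chromosome 7 (29663491 to 29673453), 4590 kb above TAP1, among 5 genes within 10 kb. Within 5 kb it had 5, 4 and 4 summits in the day 15 libraries and 1, 1 and 2 in the day 12 libraries, so these raw numbers did not overlap, as at 2 of the 9 loci (TAPBP and NLRC5) and 3.93% of all genes. Per 10000 summits of the list they did overlap, at 0.713, 2.42 and 3.34 on day 15 and 1.53, 0.3 and 0.346 on day 12. TAPBP was the only locus of the 9 reached within 5 kb by each of the 6 libraries, a pattern that 13.1% of all genes showed. The region common to the 6 libraries ran from 29663077 to 29663336, outside the lower TAPBP end. Summits lay 336, 414 and 155 bp from that end in day 15 replicates 1 to 3, and 260, 243 and 330 bp from it in day 12 replicates 1 to 3. In score percentile the same region stood at 88.3, 92.5 and 76.3 in the day 15 lists and at 20.3, 27.5 and 41.9 in the day 12 lists. These ranks do not overlap, but ranks in lists of different lengths show no change in binding.

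At the other end of TAPBP, 3 regions had a summit in 3 day 15 libraries and in 0 from day 12. The first (29672562 to 29672608) lay inside TAPBP, 845 bp from its upper end, which overlaps the zinc finger gene ZBTB22, at percentiles 20.3, 43.6 and 45.1. The second (29676448 to 29676529) lay 2995 bp above TAPBP, inside ZBTB22, at percentiles 64.0, 76.9 and 47.7. The third (29681204 to 29681252) lay 7751 bp above TAPBP and 83 bp from an end of DAXX, which encodes a histone chaperone, at percentiles 55.0, 76.6 and 79.2. Inside DAXX, a region from 29680400 to 29680509 had a summit in 1 day 15 library and 2 from day 12, again the set B libraries. On the lower side, towards RGL2, the gene of a Ral exchange factor, 3 regions of 1 library each lay 1105 to 1826 bp from TAPBP.

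Further from TAPBP, 6 regions were found in at least 3 libraries. The end of WDR46 that adjoins PFDN6 (29653486 to 29653542) and PHF1 (29714424 to 29714448) each had a summit in 3 day 15 libraries and 1 from day 12. KIFC1, a kinesin gene, held a region in 3 day 15 libraries and 2 from day 12 (29694363 to 29694547). At its upper end 2 more (29713081 to 29713100 and 29713610 to 29713856) had summits in 2 of 3 libraries of each day. Next to CUTA (29721683 to 29721867), the 3 libraries of set A had a summit, 2 from day 15 and 1 from day 12. These sites lie 9.95 to 48.2 kb from TAPBP and closer to the genes named, so they cannot be assigned to TAPBP from position.

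**Figure D3:**
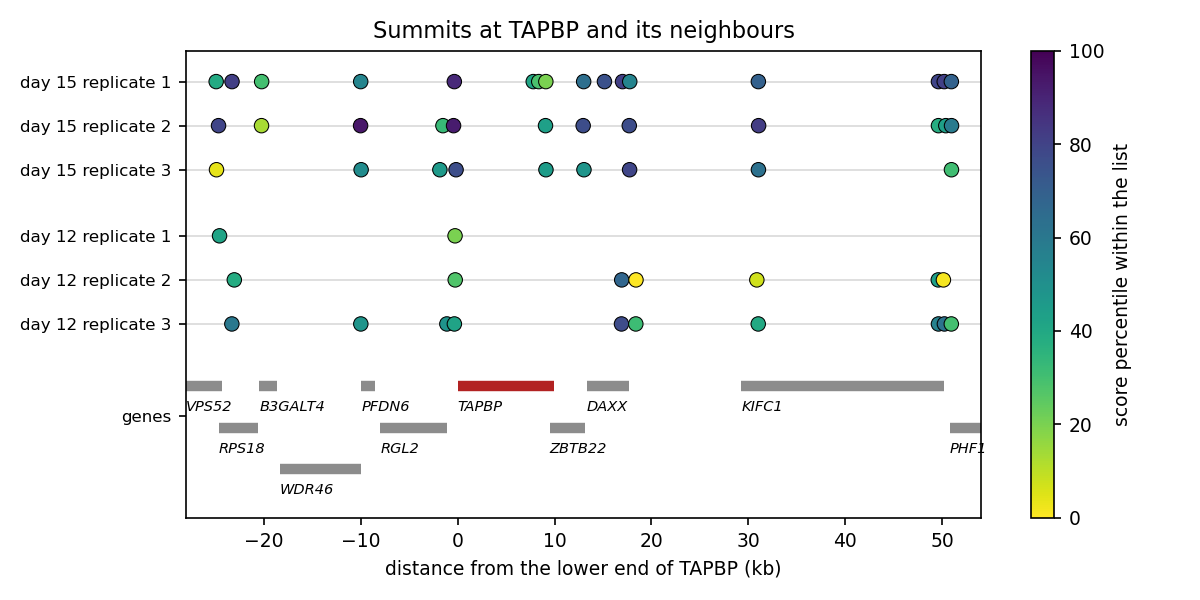
Summit positions in each library (rows, day 15 above day 12) around TAPBP, as distance in kb from its lower end, with TAPBP in red, neighbouring genes in grey and the colour giving the score percentile within the list. All 6 libraries have a summit just below 0 kb, and the columns of points at the upper end of TAPBP, at ZBTB22 and at DAXX are present in the 3 day 15 libraries.

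ERAP1, which encodes the aminopeptidase that trims peptides in the endoplasmic reticulum, was bound on both days and had an outer site found on day 15 only and an inner site found on both. The gene lies on chromosome 2 (103378428 to 103415066). A region just above its upper end (103415348 to 103415443) had a summit in 3 of 3 day 15 libraries, at 282, 315 and 377 bp, and in 0 of 3 day 12 libraries. Its percentiles were 54.3, 47.8 and 2.7 in day 15 replicates 1 to 3, so it was among the weakest calls of replicate 3. A region inside the gene (103411322 to 103411389) had a summit in day 15 replicate 1 and in day 12 replicates 2 and 3, 3677, 3734 and 3744 bp from the same end. Those are the libraries of set B, so at this inner site processing set and presence coincide. At the outer site day 15 libraries of both sets had the summit.

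B2M encodes β2-microglobulin, the light chain of class I molecules, and the annotation places it at 2 loci on chromosome 1. The first copy (126837721 to 126844043, Gene ID 110255236) and the second (126865767 to 126878501, Gene ID 397033) are 21.7 kb apart. No source used here says how reads matching both copies were placed, so summits at either copy are uncertain in position. Around the first copy, day 15 libraries had a summit 269, 285 and 264 bp inside its upper end. Across the 3 libraries these summits fell within 21 bp (126843758 to 126843779), and the day 12 libraries had 0 there. Day 12 replicates 2 and 3 instead had a summit 2115 and 2062 bp below its lower end (126835606 to 126835659), where the day 15 libraries had 0. A site 1.6 kb above the upper end was present in day 15 replicate 1 and day 12 replicate 2. By the 5 kb rule the first copy was bound on both days, while the positions behind the calls differed.

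The second copy had summits within 5 kb in day 15 replicate 1 and in day 12 replicate 3. Further sites lay in its middle, at or beyond the edge of the 5 kb windows. A region from 126871366 to 126871518 had a summit in 3 day 15 libraries and in 0 from day 12, at percentiles 65.9, 59.3 and 77.7. The neighbouring region from 126870707 to 126870834 had summits in day 15 replicates 1 and 2 and in day 12 replicate 3. When the whole gene body counted, the second copy had a summit in 3 day 15 libraries and in 1 from day 12. Above both copies, SPG11 held a region (126902028 to 126902239) in 3 day 15 libraries and 2 from day 12. Day 12 replicate 1 had no summit within 50 kb of either copy, as at 7 of the 9 loci and 53.4% of all genes.

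**Figure D4:**
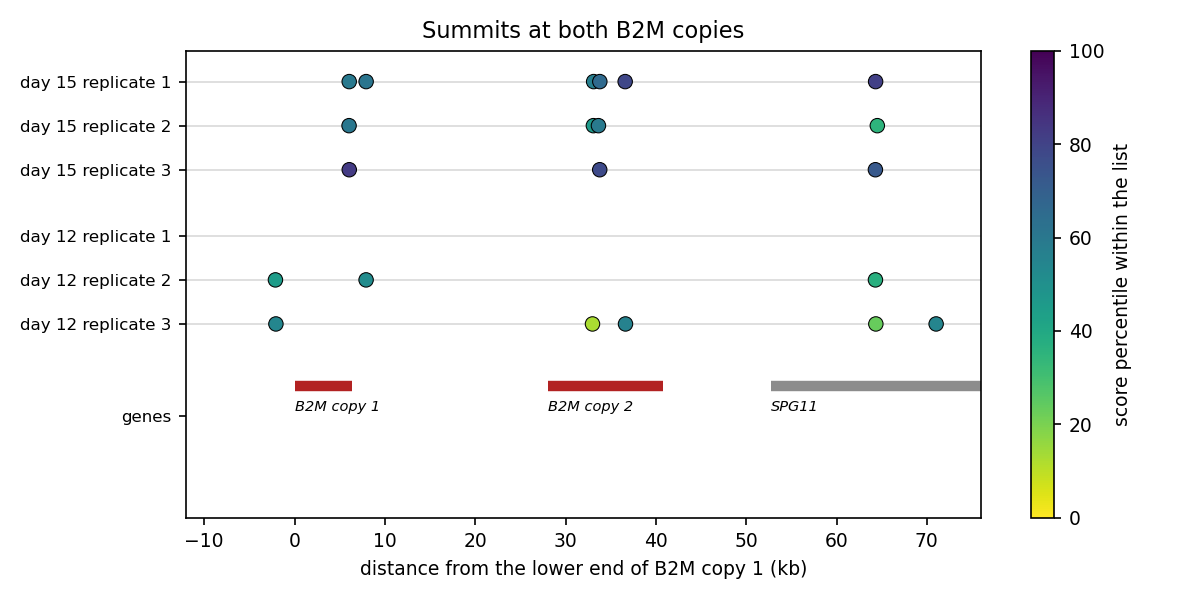
Summit positions in each library (rows, day 15 above day 12) around the B2M copies, as distance in kb from the lower end of copy 1, with B2M in red, SPG11 in grey and the colour giving the score percentile within the list. At copy 1 the 3 day 15 libraries line up inside the upper end, and day 12 replicates 2 and 3 line up below the lower end.

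NLRC5 encodes the transactivator of class I genes, a member of the NOD-like receptor family. It spans 103110 bp of chromosome 6 (18933179 to 19036288). Day 15 libraries had a summit inside the gene 4419, 4581 and 4664 bp from its lower end (18937598 to 18937843), at percentiles 51.3, 61.7 and 41.2. Day 12 libraries had 0 summits within 5 kb of either end. NLRC5 was the only locus of the 9 with 3 day 15 libraries and 0 from day 12, a pattern that 2.83% of all protein-coding genes showed. The opposite pattern was found at 0 of the 9 loci and at 0.0307% of genes. For a single gene the two-sided exact permutation p of this pattern is 0.1, the smallest that 3 against 3 libraries allow. The call depended on the window. With 1 kb, NLRC5 had no summit in any library, and ERAP1 and the first B2M copy had the pattern in its place (3.9% of all genes). In the other direction, a summit 7039 bp inside the gene in day 12 replicate 3 gave NLRC5 1 of 3 day 12 libraries when the whole gene body or 10 kb either side of an end counted. Without day 12 replicate 3, PSMB8 joined NLRC5 in the 5 kb pattern, which 8.04% of all genes then showed. Day 15 replicate 1 had a summit at that inner site too, 7059 bp from the end and at percentile 89.7 of its list, against 19.5 in day 12 replicate 3.

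The highest-ranked summits within 50 kb of NLRC5 lay in HERPUD1, a gene of endoplasmic reticulum-associated degradation that is induced by the unfolded protein response. Position alone does not show which gene they act on. A region from 18902575 to 18902642 had a summit in all 6 libraries, at percentiles from 91.4 to 99.7. The neighbouring region at the lower HERPUD1 end (18901177 to 18901206) had one in 2 day 15 libraries and in 3 from day 12, at percentiles from 97.0 to 99.4. Both lie 30.5 to 32 kb from NLRC5. A weaker region below HERPUD1 (18897219 to 18897272) had summits in 2 day 15 libraries and 1 from day 12.

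**Figure D5:**
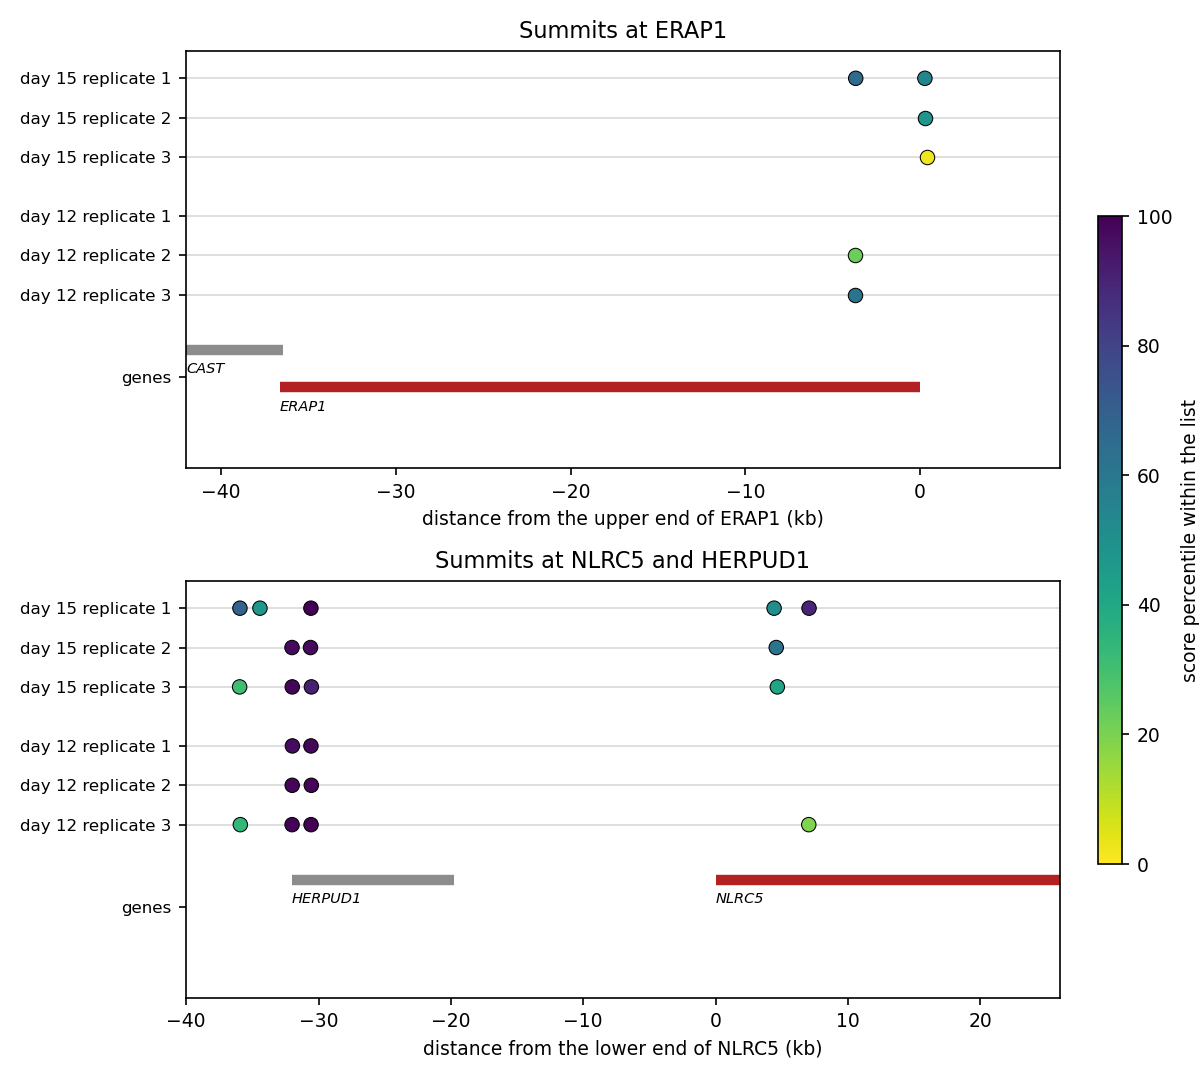
Summit positions in each library (rows, day 15 above day 12) at ERAP1, as distance in kb from its upper end (top), and at NLRC5, as distance in kb from its lower end (bottom), with neighbouring genes in grey and the colour giving the score percentile within the list. The site just above ERAP1 and the site 4.4 to 4.7 kb inside NLRC5 hold points of the 3 day 15 libraries, while the dark points at HERPUD1 occur on both days.

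Relative to list length, summits within 50 kb averaged higher on day 15 than on day 12, and the libraries of the days overlapped. Day 15 libraries had 45, 23 and 20 distinct summits within 50 kb of a class I locus, and day 12 libraries 5, 15 and 28. Per 10000 summits of the list these were 6.41, 13.9 and 16.7 on day 15 and 7.63, 4.51 and 4.85 on day 12. The means were 12.4 ± 5.33 on day 15 and 5.66 ± 1.71 on day 12 (SD, n = 3 each), a difference of 6.69. Day 12 replicate 1 exceeded day 15 replicate 1, and the other day 12 libraries lay below all day 15 libraries. Within set A day 15 libraries averaged 15.3 and the day 12 library had 7.63, and within set B the day 15 library had 6.41 and the day 12 libraries averaged 4.68. The average of the differences within the sets was 4.72. The mean over all protein-coding genes was 1.18 ± 0.248 summits per gene and 10000 summits on day 15 and 0.971 ± 0.2 on day 12 (SD, n = 3 each). By library it was 0.891, 1.29 and 1.34 on day 15 and 1.2, 0.861 and 0.85 on day 12. Every library of set A thus lay above every library of set B, and the days hold the sets in unequal number. These are means per gene, while the class I values are totals over all 9 loci with shared summits counted once. Their sizes therefore cannot be set against each other.

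Tested singly, no locus reached the 0.05 threshold, which 3 against 3 libraries cannot reach. For 6 of 9 loci every day 15 library exceeded every day 12 library in summits within 50 kb per 10000, against 9.51% of all genes. The reverse was seen at 0 of 9 loci and 3.74% of genes. The 6 loci were PSMB8, PSMB9, TAP1, TAP2, ERAP1 and the first B2M copy, each with a two-sided exact permutation p of 0.1 and a Benjamini-Hochberg adjusted p of 0.755 over all 19550 genes. TAP1 had 1.39 ± 0.249 on day 15 and 0.489 ± 0.444 on day 12, and ERAP1 had 0.623 ± 0.205 on day 15 and 0.158 ± 0.151 on day 12 (SD, n = 3 each). The 4 genes of the cluster share most of these summits. TAPBP had 2.57, 7.86 and 8.36 per 10000 in the day 15 libraries and 4.58, 2.1 and 1.73 in the day 12 libraries (exact permutation p = 0.2). NLRC5 had 0.855, 1.81 and 3.34 on day 15 against 3.05, 0.601 and 0.866 on day 12 (exact permutation p = 0.6). The second B2M copy had 0.855, 2.42 and 2.51 on day 15 against 0, 0.901 and 1.04 on day 12 (exact permutation p = 0.3). Day 15 exceeded day 12 within both processing sets at 7 loci, the 6 named and TAPBP, against 15.8% of all genes. For the 6 named this follows from the lack of overlap and adds nothing to it. Of the other loci, TAPBP was higher on day 15 in both sets, and the second B2M copy and NLRC5 were not. Each set holds a single library of 1 of the days. With windows of 100 kb, 1 locus (ERAP1) was left with every day 15 library above every day 12 library, against 9.71% of all genes. With 20 kb there were 6, against 8.98%, but the second B2M copy and NLRC5 stood in place of the first copy and ERAP1.

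Of the 58 regions within 50 kb of a class I locus, 7 had a summit in 3 day 15 libraries and 0 from day 12 and 0 had the reverse. Among all regions within 50 kb of a protein-coding gene end these shares were 1.2% and 0.131%. The 7 are those described at the first and second B2M copies, at ERAP1 and NLRC5, and the 3 at TAPBP, ZBTB22 and DAXX. Of them, 5 lay within 5 kb of a class I locus, out of 21 regions that close, against 2.48% of all regions at that distance from a gene end. The reverse was found at 0 of the 21, against 0.115%. Summits of all 6 libraries met at 2 of the 58 regions, those of TAPBP and HERPUD1, against 3.11%, and at 1 of the 21, that of TAPBP, against 4.46%. Leaving out day 12 replicate 1 added 2 regions with summits in both remaining day 12 libraries and 0 of 3 day 15 libraries, below the first B2M copy and above DAXX. The rule is then looser, and the share of all regions that meet it was not computed. For genes and 5 kb windows, the reverse pattern rose from 0.0307% to 0.885% of all genes without that library, and stayed at 0 of the 9 loci.

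Cut to equal length, the lists kept part of these sites in day 15 replicates 2 and 3 and none of the 9 loci in the libraries of set B. With the 6557 highest-scoring summits of each list, 0, 5 and 4 loci kept a summit within 5 kb in day 15 replicates 1 to 3 and 1, 0 and 0 loci in day 12 replicates 1 to 3. Every library with a locus left was of set A, in which 24.4% and 24.3% of all genes kept a summit on day 15 and 17.2% on day 12, against 10.5% on day 15 and 9.44% and 9.67% on day 12 in set B. TAP1 and the first B2M copy then had a summit in 2 day 15 libraries and 0 from day 12, and TAPBP in 2 from day 15 and 1 from day 12. NLRC5 had one in day 15 replicate 2 alone, and none of the 7 regions named above was left in 3 of 3 day 15 libraries. Among all genes at equal length, 20.3% were bound on day 15 and 9.68% on day 12, against 3 and 0 of the 9 loci. A summit in every library of day 15 and none of day 12 was then found at 0.292% of genes, and the reverse also at 0.292%, so the excess of 2.83% over 0.0307% in the full lists was not present.

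A list of other genes in or around the class I pathway was bound at shares above those of all genes on both days. It also holds constitutive proteasome subunits and 17 regulators, CIITA among them, so its shares are not those of class I processing genes alone. Of 38 such genes, grouped by role, 31 (81.6%) were bound on day 15 and 23 (60.5%) on day 12, against 46.3% and 38.1% of all genes. In 3 of 3 libraries of either day and 0 of 3 of the other, 0 of the 38 had a summit, against 2.83% of all genes for day 15 and 0.0307% for day 12. All 6 libraries had one at 11 of the 38, against 13.1% of all genes. Among the heavy chain genes 3 of 6 were bound on each day, close to the share of all genes. SLA-2 and SLA-3 had a summit in all 6 libraries, but these near-identical genes, whose annotations overlap among SLA-1, SLA-2 and SLA-3, can exchange reads and share summits. Of 7 further proteasome genes, 6 were bound on each day. PSME1 and PSME2, which encode the interferon-induced activator PA28 and lie 3.96 kb apart, had one in all 6 libraries, and PSMB7, a constitutive catalytic subunit gene, in 0 of 6.

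Loading partners were bound in 4 of 4 cases on day 15 and in 2 of 4 on day 12, beside the same 46.3% and 38.1% of all genes, which also stand against the counts that follow. CALR and CANX, which encode lectin chaperones of the endoplasmic reticulum, had a summit in all 6 libraries. PDIA3, the disulfide isomerase of the loading complex, and TAPBPL, the gene of a tapasin-related editor, had one in 3 day 15 libraries and 1 from day 12. Of the peptidase genes 3 of 4 were bound on day 15 and 0 of 4 on day 12. ERAP2, LNPEP and THOP1 each had a summit in 3 day 15 libraries and 1 from day 12, and ERAP2 and LNPEP lie 4.88 kb apart. Regulators were bound in 15 of 17 cases on day 15 and 12 of 17 on day 12. IRF2, IRF9, RFXANK and NFYA had a summit in all 6 libraries. RFX5, which encodes a subunit of the factor that binds the X box of MHC promoters, had one in 3 day 15 libraries and 1 from day 12. CIITA, the class II counterpart of NLRC5, and RFXAP had none within 5 kb.

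Patterns over the 6 libraries were compared by the number of libraries in which presence within 5 kb was the same. PSMB8 shared all 6 with PDIA3, TAPBPL, ERAP2, LNPEP, THOP1 and RFX5, a pattern shown by 5.21% of all genes. PSMB9, TAP1, ERAP1 and the first B2M copy, which had a summit in every library but day 12 replicate 1, shared theirs with SLA-1, PSMB6, STAT2 and EZH2. That pattern was shown by 10% of all genes. No gene of the list had the pattern of NLRC5.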

How the data were processed

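Per the submitters' processing notes, reads were handled with Bowtie2 2.3.5.1, SAMtools 1.9 and MACS2 2.1.2 on build susScr11. No source used here gives the threshold of calling, whether inputs served as background, or how duplicates and replicates were treated. The score deposited by the authors is −log10 of the p-value or the q-value (which is not stated). Apart from the lowest score of each list, it was used only to rank or filter within a list. Of 198341 summits, 196220 lay on the chromosomes. Genes were placed with RefSeq positions on Sscrofa11.1 (30371 genes). The table lacks strand, exons and sequence, so lower and upper ends are by coordinate and motifs were not searched. Windows of 5 and 50 kb were measured from either end, summits were joined within 200 bp, and a percentile is the rank of a score within its list (ties averaged). Single loci were compared with two-sided exact permutation tests over 20 arrangements, adjusted over all genes, and the counting was tested on simulated lists. Members, lists and tests were chosen with earlier results of these data known. All 8 genes, regions in at least 3 libraries, neighbours within 5 kb of a counted summit, and pathway genes with 0 or 6 libraries, a difference of at least 2 or the pattern of a member were named; some results under this rule are not reported here. Python 3.11.15, pandas 2.3.3 and NumPy 2.4.6 were used.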

Additional observations from a re-analysis of the deposited data

How the results depend on the processing

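Without read counts, depth sets an unknown limit on every absence, above all in day 12 replicate 1. That list also had the highest lowest score. Over 10 results, 107 of 122 values under alternatives stayed within their limits. A difference counted as within its limit when it moved by no more than the SD of the libraries within days. A count did when it changed by no more than a fixed factor or stayed at 0. Without day 12 replicate 1, the falls from 3.33 to 1.67 loci within 5 kb and from 2.33 to 0 within 50 kb were within these limits. The 107 values therefore do not measure stability. With equal lists, 3 loci were bound on day 15 and 0 on day 12 (20.3% and 9.68% of all genes), and loci with 3 of 3 day 15 and 0 of 3 day 12 libraries, loci without overlap within 50 kb and regions found in the day 15 libraries only fell to 0, 0 and 0. Of all genes, 0.292% then had the day 15 pattern within 5 kb and 0.292% its reverse. Without overlap within 50 kb, day 15 was higher at 1.42% of all genes and day 12 at 1.74%. With shares this small, 0 of 9 loci shows nothing particular to the class I loci. The share of all regions was not computed at equal length. The cause of these falls was not tested, beyond the shorter lists themselves. The differences between the days at equal length were 2.67 loci within 5 kb, 4.33 loci within 50 kb and 8.64 summits per 10000. In the full lists they were 3.33, 2.33 and 6.69. Every library with a locus left within 5 kb was of set A, so the sets bear on these differences too. A score of at least 5 and a 1 kb window each left 3 loci bound on day 12, against 26.6% and 21.2% of all genes. Loci with 3 of 3 day 15 and 0 of 3 day 12 libraries numbered 2 with 1 kb (ERAP1 and the first B2M copy, not NLRC5), 0 with 10 kb and 0 with gene bodies counted, against 3.9%, 2.19% and 2.16% of all genes. With 100 kb, 1 locus was without overlap, with day 15 higher, as 9.71% of genes were.

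Leaving out 1 library at a time gave 1 to 5 loci bound on day 12 and 7 to 7 on day 15. The shares of all genes were 15% to 38.1% and 34.5% to 46.3%. The NLRC5 pattern was found at 1 to 2 loci (2 without day 12 replicate 3, with PSMB8), against 3.19% to 8.04% of all genes. Loci without overlap, with day 15 higher, numbered 6 to 8, against 11.4% to 23% of all genes. There were 8 without day 15 replicate 1 (23% of all genes) and 7 without day 12 replicate 1 (20.4%). Regions of the day 15 libraries only ranged from 7 to 10 (8 without day 15 replicate 3). Those of day 12 only ranged from 0 to 2 (2 without day 12 replicate 1). The shares of all regions were not computed for these settings. The difference in loci within 5 kb ranged from 1.67 to 4.67 and that within 50 kb from 0 to 3.5, both lowest without day 12 replicate 1. The difference in summits per 10000 ranged from 4.5 without day 15 replicate 3 to 9.66 without day 15 replicate 1. It was 7.67 without day 12 replicate 1. In the analysis with a replicate block, 7 loci had all 3 same-numbered pairs in 1 direction, against 23.2% of genes (smallest exact paired p 0.25). Same-numbered libraries deviated from their day means with correlations of -0.544, -0.212 and -0.415 over genes. The libraries of each such pair came from different processing sets, so these values cannot show whether the numbers pair them. Without the first B2M copy, chosen after seeing the data, 6 of 8 loci were bound on day 15 and 4 of 8 on day 12. The shares of all genes were 46.3% and 38.1%.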
